A study of Mus musculus with 6 samples.

Results

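The genes described here are 10 members of the Notch pathway: the receptors Notch1, Notch2 and Notch3, the ligands Dll1 and Jag1, and the Hes and Hey genes Hes1, Hes5, Hey1, Hey2 and Heyl. They were taken by symbol from the 19938 genes measured, each had 1 transcript cluster (the set of probes that measures a gene), and all 10 were found. Expression was measured in enterospheres, floating spheres that form when cells of the muscle layers of the neonatal gut are cultured with growth factors. Of the 6 samples, 3 were enterospheres proliferating for 11 days and 3 were enterospheres proliferating for 9 days and then differentiating for 2 days, each on an array of its own. Both groups came from C57BL/6 mice at P0, with 3 neonatal mice pooled per sample by the labels. Proliferating enterospheres received EGF at 10 ng/mL and FGF at 20 ng/mL every day by the labels. Differentiation medium lacked both factors and contained ascorbic acid-2-phosphate, so that these differences cannot be told apart. The methods of the study give another number of pups, another EGF concentration and another split of the culture phases than the labels.

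Notch signalling passes between touching cells. A ligand of the Delta or Jagged family on one cell binds a Notch receptor on its neighbour, proteases release the intracellular part of the receptor, and this part joins the DNA-binding protein RBPJ to switch on targets such as the Hes and Hey genes. Hes and Hey proteins are transcriptional repressors that hold back proneural factors. In the developing enteric nervous system the pathway is known for keeping crest-derived progenitors undifferentiated, and in the vessel wall for its role in mural cells.

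The values are log2 intensities normalised with RMA by the authors, so that a difference of 1 is a 2-fold change. Array medians lay between 6.12 and 6.18, correlations within the groups were 0.988 to 0.995 and those across them 0.983 to 0.989. The neural label was checked against its markers: all 8 measured genes of enteric neural crest and glia, Sox10, Ret and Ngfr among them, lay above the median cluster mean of 6.15, while all 7 macrophage markers, 4 of 5 epithelial markers and 4 of 5 mesothelial markers lay below it. All 4 markers of interstitial cells of Cajal and all 6 of fibroblasts lay above it too. Differences are differentiation minus proliferation and were tested with limma. P-values were adjusted by Benjamini and Hochberg over the 35556 clusters, and "rose" and "fell" are kept for genes with an adjusted p under 0.05. SE stands for the standard error of a log2 fold change. A gene's groups are called apart where the values of the groups do not overlap. The number of arrays limits the precision: with 3 per group a two-sided exact permutation test cannot give a p below 0.1. The methods of the study describe 3 independent experiments, each with cultures from pups of 1 litter. Neither they nor the labels tie a replicate number to an experiment, so p-values measure the spread between these samples.

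In differentiating enterospheres Notch2 was downregulated and the other 9 genes did not pass the test. Signs were mixed, since 5 genes had positive and 5 had negative log2 fold changes, with a median of 0.03 beside 0.02 over all genes. By limma 1 of the 10 was called, against 5.91% of all genes measured, and 0 rose, against 2.94% of all genes. At an unadjusted p under 0.05 there were 5 of 10, namely Notch1, Hey1 and Heyl with higher and Notch2 and Jag1 with lower values, against 19.1% of all genes. The methods' t-test with its 1.5-fold minimum called 0 of the 10, against 5.66% of all genes. After Benjamini-Hochberg adjustment the methods' t-test called 0 as well, against 1.06% of all genes. Groups were apart in 4 of the 10, against 27.5% of all genes, with differentiation higher in 2 (14.6% of all genes) and lower in 2 (12.9%). The median absolute log2 fold change was 0.27 for the 10 genes and 0.11 for all genes. All 10 lay above the median cluster mean, while the values for all genes include dimmer ones. Tested alone, the 17778 clusters at or above that median gave 2112 calls, against 1459 for all 35556. The comparisons with all genes are therefore not matched for brightness, and a matched share was not taken. The plot of values by array shows every measurement.

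**Figure D1:**
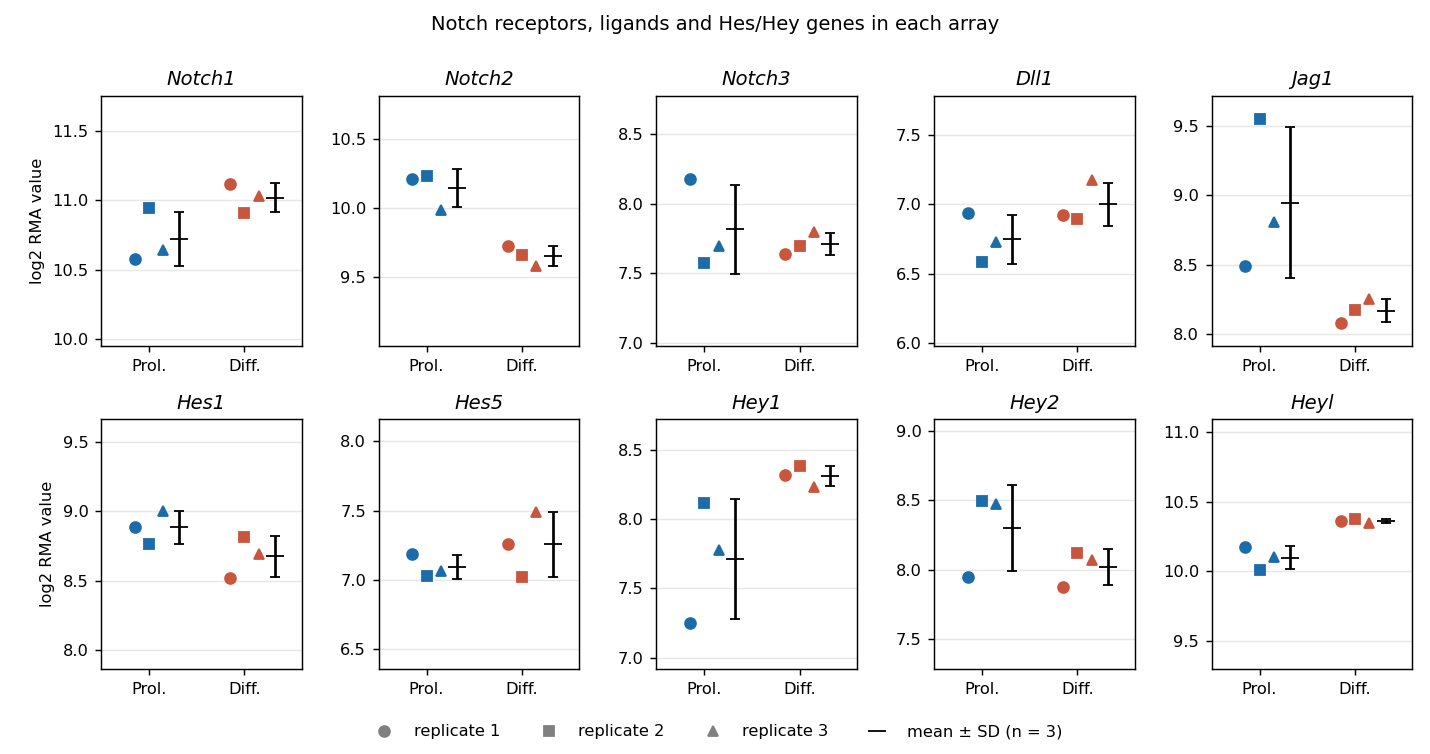
Each panel is 1 gene, with its log2 RMA value on the vertical axis over the same span in every panel and the proliferation (Prol., blue) and differentiation (Diff., red) arrays side by side. Points are single arrays, with the replicate number as the marker shape, and black bars are the mean and SD of 3 arrays. The groups lie apart for Notch2, Jag1, Hey1 and Heyl and overlap for the other 6 genes.

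Among the receptors, Notch2 was the gene that fell. Its log2 values were 10.21, 10.23 and 9.99 in proliferation replicates 1, 2 and 3 and 9.73, 9.66 and 9.58 in differentiation replicates 1, 2 and 3. Every differentiating sample lay below every proliferating one. Means and SDs (n = 3) were 10.14 ± 0.14 in proliferation and 9.66 ± 0.07 in differentiation, and the log2 fold change was -0.49 (SE 0.10, limma's adjusted p = 0.0457) or 1.40-fold lower. In bulk RNA, fewer cells that express the gene and less of its RNA per cell cannot be told apart. The call was close to the threshold and ended without any 1 of the 6 arrays, with adjusted p values of 0.0716 to 0.146 and log2 fold changes of -0.56 to -0.44. With array weights the log2 fold change was -0.32 (adjusted p = 0.011).

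Notch1, the receptor best known from neural progenitors, had log2 values of 10.58, 10.94 and 10.64 in proliferation and 11.12, 10.91 and 11.03 in differentiation. The groups overlapped because proliferation replicate 2 lay above differentiation replicate 2. Its log2 fold change was 0.30 (SE 0.12, limma's adjusted p = 0.302), with a 95% interval for the gene alone of 0.01 to 0.58. Notch3, a receptor of mural cells of vessels, had values of 8.18, 7.57 and 7.70 in proliferation and 7.64, 7.69 and 7.80 in differentiation. The groups overlapped, and proliferation replicate 1 stood above the other 5 arrays. The log2 fold change was -0.11 (95% interval -0.49 to 0.28, adjusted p = 0.825), and it became 0.08 without that array.

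Because Notch1 and Notch2 had fold changes of opposite sign, their difference was also taken within each array, a comparison picked after the values had been seen. The level of such a difference depends on the probes, so its change between the groups alone is read. Notch1 minus Notch2 was 0.37, 0.71 and 0.66 in proliferation and 1.40, 1.25 and 1.45 in differentiation. The groups were apart, and the ratio of Notch1 to Notch2 signal was 1.72-fold higher in differentiation (exact two-sided permutation p = 0.1, the smallest that 3 arrays against 3 allow). Over the 14 pairs of genes within the receptors, the ligands and the Hes and Hey genes, which share genes and were partly apart as single genes, 6 were apart, against 31.0% of all pairs of genes measured, and the lowest adjusted exact p was 0.233.

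Notch receptors and ligands are also expressed in vessels and muscle, so the markers of those cells are given here. Of 7 smooth muscle markers 4 rose (Acta2, Cnn1, Tagln and Actg2) and Smtn fell, and their summed level on the linear scale was 1899 to 2072 in proliferation and 2256 to 2474 in differentiation. Of 5 mural cell markers other than Notch3 and Heyl, Cspg4 fell and the others did not pass, with a summed level of 4144 to 4982 in proliferation and 3507 to 3796 in differentiation. Without Cspg4, a choice made after the values were seen, this sum overlapped, at 2881 to 3668 in proliferation and 3072 to 3330 in differentiation. Of 4 markers of interstitial cells of Cajal Ano1 fell, and their sum was 6172 to 7740 in proliferation and 4655 to 5048 in differentiation. The sums of smooth muscle and interstitial cell markers did not overlap between the groups, nor did the mural sum with Cspg4 in it. Neural markers changed as well. All 8 of enteric neural crest and glia had groups apart, and of these Ngfr and Gfap rose and S100b and Fabp7 fell. Their sum overlapped, at 17310 to 21430 in proliferation and 18320 to 19430 in differentiation. Tubb3 rose among 7 neuronal markers, whose sum overlapped, at 7283 to 10520 in proliferation and 9616 to 10860 in differentiation. Dpt rose among 6 fibroblast markers, whose sum overlapped too. The part of these changes in the decrease of Notch2 was not tested. Of 7 endothelial markers limma called 0 (1 at an unadjusted p under 0.05, 0 by the methods' t-test), 5 lay below the median cluster mean, and their summed level overlapped between the groups, at 394.8 to 458.9 in proliferation and 403.0 to 437.9 in differentiation. RMA values have no zero, so none of these markers can be called absent.

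Of the ligands neither passed the test. Jag1, the Jagged ligand that signals in vessels and neural tissue, had the largest mean difference of the 10 genes. Its log2 values were 8.49, 9.55 and 8.81 in proliferation and 8.08, 8.17 and 8.25 in differentiation. All 3 differentiating samples lay below all 3 proliferating ones, but the proliferating samples ranged widely, with proliferation replicate 2 the highest. Means and SDs (n = 3) were 8.95 ± 0.54 in proliferation and 8.17 ± 0.08 in differentiation, and the log2 fold change was -0.78 (95% interval -1.38 to -0.18, limma's adjusted p = 0.187). Without proliferation replicate 2 it was -0.48 (adjusted p = 0.139). That array also had the lowest summed level of 7 neuronal markers, 7283 against 9616 to 10860 in the other 5, and the highest of enteric neural crest and glia, 21430 against 17310 to 19430. Its endothelial sum was the highest too, 458.9 against 394.8 to 437.9, and its fibroblast sum the lowest, 8883 against 10400 to 14020. The macrophage and mesothelial sums were also lowest in it. For smooth muscle, mural, interstitial cell and epithelial markers it was neither the highest nor the lowest array. The part of these levels in the Jag1 value was not tested.

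Dll1, the Delta ligand of differentiating neural cells, had log2 values of 6.93, 6.58 and 6.73 in proliferation and 6.92, 6.89 and 7.18 in differentiation. The groups overlapped, with a log2 fold change of 0.25 (95% interval -0.05 to 0.55, limma's adjusted p = 0.415). Dll1 minus Jag1 was -1.55, -2.97 and -2.08 in proliferation and -1.16, -1.28 and -1.08 in differentiation. The differentiating samples were higher in all 3 cases, a 2.04-fold higher ratio (exact permutation p = 0.1, adjusted 0.233), with proliferation replicate 2 farthest from them.

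**Figure D2:**
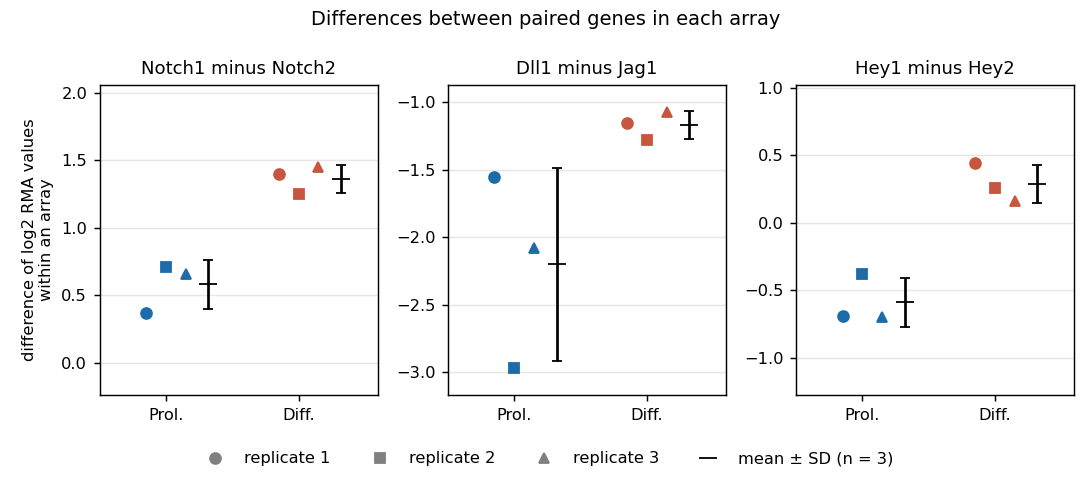
Difference of the log2 RMA values of 2 genes within each array on the vertical axis, for the proliferation (Prol., blue) and differentiation (Diff., red) arrays, with the mean and SD of 3 arrays as black bars. The groups are apart in the 3 pairs shown, and the height of a panel's values depends on the probes of its genes.

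The Hes and Hey genes are the usual readout of the pathway, and none of the 5 passed limma's test (2 at an unadjusted p under 0.05, 0 by the methods' t-test). Promoter windows were at hand for Hes5 and Hey2 among them and are shown because RBPJ, which carries the Notch signal to DNA, binds the core TGGGAA. The sequences are from RefSeq, build GRCm38.p6, and run 5′ to 3′ along the gene from 250 bases before its start, with TGGGAA on either strand (TTCCCA on the other) in capitals. The Hes5 window lies at chr4:154960673-154960922 on the plus strand and the Hey2 window at chr10:30842781-30843033 on the minus strand, where it runs 3 bases past the start to the end of the motif. The window of Notch2, the gene that fell, lies at chr3:98013288-98013537 on the plus strand and is shown for comparison.
Hes5: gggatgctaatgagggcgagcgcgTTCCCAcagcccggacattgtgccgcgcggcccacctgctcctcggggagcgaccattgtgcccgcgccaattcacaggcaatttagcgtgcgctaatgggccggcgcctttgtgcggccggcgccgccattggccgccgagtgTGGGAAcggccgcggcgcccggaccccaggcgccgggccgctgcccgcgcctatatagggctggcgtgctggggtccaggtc
Hey2: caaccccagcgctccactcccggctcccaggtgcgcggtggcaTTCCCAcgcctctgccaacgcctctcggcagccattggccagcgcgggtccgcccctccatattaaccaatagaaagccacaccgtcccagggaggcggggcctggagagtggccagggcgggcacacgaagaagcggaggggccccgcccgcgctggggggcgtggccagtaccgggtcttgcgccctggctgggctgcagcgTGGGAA
Notch2: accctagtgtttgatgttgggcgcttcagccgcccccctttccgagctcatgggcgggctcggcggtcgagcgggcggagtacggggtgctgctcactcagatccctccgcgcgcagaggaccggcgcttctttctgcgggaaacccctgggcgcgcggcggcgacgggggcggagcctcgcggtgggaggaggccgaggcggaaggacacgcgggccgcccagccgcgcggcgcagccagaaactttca

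Hes5 held the core in both orientations, at bases -226 to -221 and -82 to -77 from its start (base 1 is the start and there is no base 0), and Hey2 likewise at -207 to -202 and -3 to 3. In each of the 4 places the longer form GTGGGAA, which contains the core, was present. Over the whole window of 300 bases the core was found in the promoters of these 2 of 7 members with a window and in 25.6% of 32851 promoter windows, and the longer form in the same 2 and in 6.38%. Notch1, Notch2, Notch3, Dll1 and Jag1 had no match in this window, and no window was used here for Hes1, Hey1 and Heyl. A match is a description of the letters and not a measured site.

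Neither gene with these matches passed the test. Hes5, a repressor of neural progenitors, had log2 values of 7.19, 7.03 and 7.06 in proliferation and 7.26, 7.02 and 7.49 in differentiation. The lowest value of all was that of differentiation replicate 2, and the log2 fold change was 0.16 (95% interval -0.15 to 0.48, limma's adjusted p = 0.635). Hey2, a repressor known from vessels and heart, had values of 7.95, 8.49 and 8.47 in proliferation and 7.87, 8.12 and 8.07 in differentiation. Its proliferation replicate 1 lay among the differentiating samples, and the log2 fold change was -0.28 (95% interval -0.67 to 0.11, adjusted p = 0.491).

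Hes1, the most general of the Hes targets, had log2 values of 8.89, 8.77 and 9.00 in proliferation and 8.52, 8.82 and 8.69 in differentiation. The groups overlapped, and the log2 fold change of -0.21 (95% interval -0.47 to 0.05, limma's adjusted p = 0.441) did not pass.

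Hey1, a repressor expressed in many Notch-responsive cells, had log2 values of 7.25, 8.11 and 7.77 in proliferation and 8.32, 8.38 and 8.23 in differentiation. Every differentiating sample lay above every proliferating one, and the mean went from 7.71 ± 0.43 to 8.31 ± 0.07 (SD, n = 3). The log2 fold change was 0.60 (95% interval 0.11 to 1.09, limma's adjusted p = 0.216) and 0.37 without proliferation replicate 1, the lowest array (adjusted p = 0.236). Heyl, a Hey gene of mural and smooth muscle cells, had values of 10.18, 10.01 and 10.10 in proliferation and 10.36, 10.38 and 10.35 in differentiation. Its groups were apart as well, with a narrow spread and a log2 fold change of 0.26 (95% interval 0.07 to 0.46, limma's adjusted p = 0.16).

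Hey1 and Hey2 had fold changes of opposite sign, and their pair is given first for that reason, after the values had been seen. Hey1 minus Hey2 was -0.69, -0.38 and -0.70 in proliferation and 0.44, 0.26 and 0.16 in differentiation. The ratio of Hey1 to Hey2 signal was 1.84-fold higher in differentiation, with the groups apart (exact two-sided permutation p = 0.1, adjusted 0.233). Hes1 against Hey1, Hes1 against Heyl and Hey2 against Heyl were apart too, with ratios that changed 1.75-fold, 1.39-fold and 1.46-fold, each in favour of the second gene of the pair when enterospheres differentiated. The other 6 pairs of Hes and Hey genes overlapped. Each pair that was apart had an adjusted exact p of 0.233, and 31.0% of all pairs of genes measured were apart. Hey1 and Heyl were apart as single genes, so pairs that hold them partly repeat this. The pairs are not read as a result beyond the single genes.

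**Figure D3:**
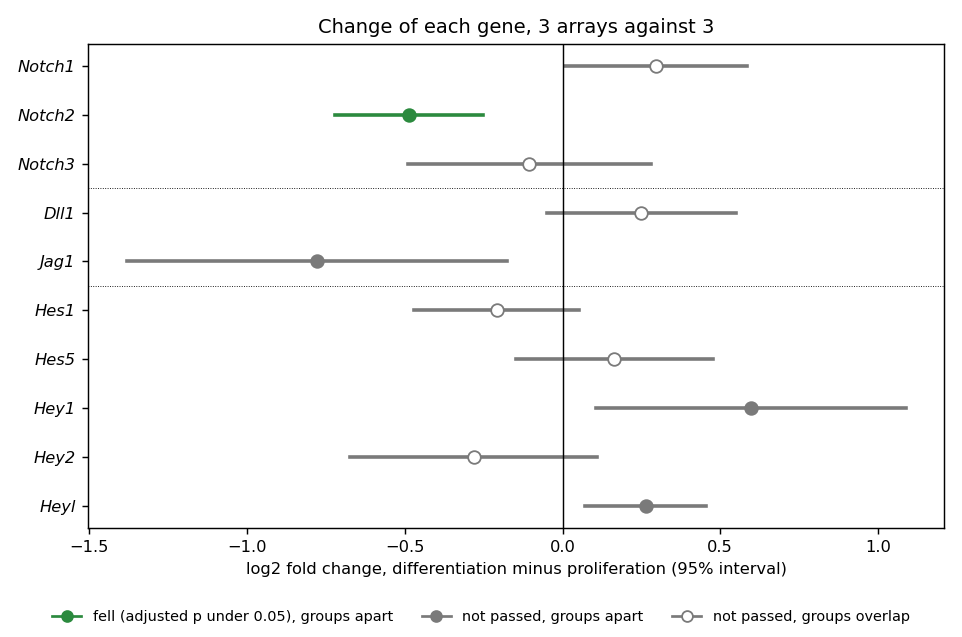
The horizontal axis gives the log2 fold change of each gene (differentiation minus proliferation) and bars are 95% intervals from limma, not adjusted for the number of genes. Notch2 (green) fell, at -0.49, grey genes did not pass the adjusted test, and filled points mark genes whose groups did not overlap. Dotted lines part receptors, ligands and the Hes and Hey genes.

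The rest of the pathway was read from a list of genes by role, of which 66 were analysed here. Of the 66, 6 rose and 2 fell, against 2.94% and 2.97% of all genes, and 58 did not pass, with a median log2 fold change of 0.01. Means lay above the median cluster mean for 54 of the 66, so these shares are not matched for brightness either. The genes that rose were Furin, Adam10, Tle3, Numbl, Bhlhe41 and Neurod4, and those that fell were Notch4 and Ctbp2. Tle3 and Neurod4 are named by the study, and all 8 calls rest on the same 6 arrays as the study, so none of them is independent evidence. The counts fell to 2 without proliferation replicate 3 or differentiation replicate 1, when Tle3 and Bhlhe41 were left, and to 3 without differentiation replicate 2 or differentiation replicate 3. They were 5 without proliferation replicate 1 or proliferation replicate 2. Calls over all 35556 clusters went down as well, from 1459 to between 294 and 1297 without 1 array.

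Of the 9 measured enzymes that cut the receptors 2 rose and 7 did not pass. Furin, which cleaves Notch on its way to the cell surface, had log2 values of 10.16, 9.90 and 9.97 in proliferation and 10.47, 10.59 and 10.54 in differentiation, and rose by a log2 fold change of 0.52 (limma's adjusted p = 0.0336). Adam10, which cuts the receptor once a ligand has bound, had values of 10.41, 10.34 and 10.28 in proliferation and 10.85, 10.85 and 10.84 in differentiation. It rose by 0.50 (SE 0.08, adjusted p = 0.0172), or 1.42-fold, with all differentiating samples above the proliferating ones. Those that did not pass included Adam17 and the measured subunits of gamma-secretase, which makes the final cut. Furin lost its call without 5 of the 6 arrays, that is all but proliferation replicate 1, with adjusted p values up to 0.143. Adam10 lost it without proliferation replicate 3 and without each of the 3 differentiation arrays, with values up to 0.103.

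Notch4, the receptor of endothelial cells, fell as Notch2 did. Its log2 values were 7.37, 7.11 and 7.21 in proliferation and 6.75, 6.57 and 6.67 in differentiation, a log2 fold change of -0.57 (SE 0.10, limma's adjusted p = 0.0288). The groups were apart, and the call was kept without proliferation replicate 2 alone among the 6 arrays. Of the other ligands and ligand-like genes in the list, Dll3, Dll4, Jag2, Dlk1, Dlk2 and Dner, 0 passed limma's test (1 at an unadjusted p under 0.05, 0 by the methods' t-test). Dll3, which acts within the cell, was the 1 with an unadjusted p under 0.05, at 0.49 on the log2 scale (adjusted p = 0.0777), and is outside the rule by which genes were named.

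The parts that pass the signal to DNA did not pass the test. Rbpj itself had a log2 fold change of -0.15 (limma's adjusted p = 0.513), and of the 9 genes of the activation complex 0 were called (2 at an unadjusted p under 0.05, 0 by the methods' t-test). The largest difference among them was that of Kat2b, an acetyltransferase, at 0.37 (adjusted p = 0.121). Likewise 0 of 4 ubiquitin ligases that act on ligands were called (1 at an unadjusted p under 0.05, 0 by the methods' t-test), led by Neurl1b at -0.49 (adjusted p = 0.118). Of 5 genes for glycosylation of the receptors limma called 0, while Mfng, a Fringe enzyme that tunes which ligand a receptor answers to, had a log2 fold change of 0.59 (adjusted p = 0.0606) and was the 1 that passed both the unadjusted threshold and the methods' t-test.

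Of 8 corepressors Tle3 rose and Ctbp2 fell, and of 11 inhibitors and endocytic regulators Numbl rose. Tle3, a Groucho corepressor used by Hes proteins, had log2 values of 10.17, 10.31 and 10.19 in proliferation and 10.98, 11.01 and 11.02 in differentiation, and rose by 0.78 (SE 0.08, limma's adjusted p = 0.00564). It passed without each of the 6 arrays. Ctbp2, a corepressor of RBPJ, fell by 0.44 (adjusted p = 0.0478), a call that ended without any 1 of the 6 arrays. Numbl, a relative of the Notch inhibitor Numb, rose by 0.63 (adjusted p = 0.0128), while Numb had a log2 fold change of -0.20 (adjusted p = 0.318). The Numbl call ended, with adjusted p values between 0.0514 and 0.0824, when proliferation replicate 3, differentiation replicate 1 or differentiation replicate 2 was left out.

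Nrarp, a direct Notch target that feeds back on the pathway, is named after its values were seen. Its log2 values were 5.98, 6.38 and 6.08 in proliferation and 5.69, 5.59 and 5.66 in differentiation. The groups were apart, with a log2 fold change of -0.50 (95% interval -0.78 to -0.22, limma's adjusted p = 0.0777), and the mean over the 6 arrays lay below the median cluster mean.

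Bhlhe41 had the largest change in the list. It encodes a repressor with a domain like that of Hes proteins, and is known as a gene of the circadian clock. Its log2 values were 5.69, 5.24 and 5.39 in proliferation and 8.24, 8.08 and 7.77 in differentiation, a rise of 2.59 (SE 0.16, limma's adjusted p = 0.00188) or 6.00-fold. It passed without each of the 6 arrays, and since its proliferating samples lay under the median of all clusters the exact fold is uncertain. Its relative Bhlhe40 had a log2 fold change of 0.38 (adjusted p = 0.48), and Hes2, Hes3, Hes6, Hes7 and Helt lay between -0.04 and 0.25. Of the 6 measured proneural factors, Neurod4 rose by 1.03 (SE 0.18, adjusted p = 0.0276). The remaining 5 were not called. All 6 had means below the median cluster mean, and Neurod4 lost its call without any 1 array other than differentiation replicate 2 (adjusted p from 0.051 to 0.112).

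**Figure D4:**
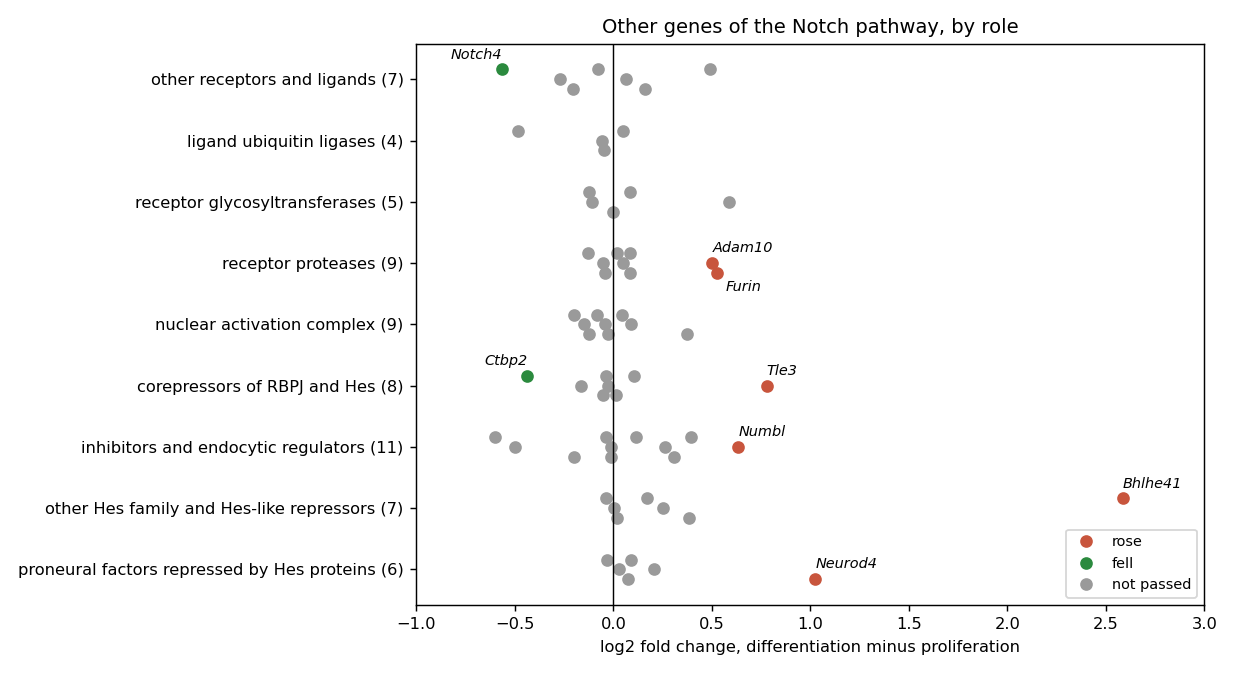
Genes of the wider pathway list are points in rows by role, with how many were measured in brackets. The horizontal axis is the log2 difference between the group means, with positive values higher in differentiation. Red marks genes that rose and green those that fell by limma (3 arrays per group), grey points did not pass, and the vertical scatter within a role carries no value. Bhlhe41 lies farthest from 0, at 2.59.

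The genes whose pattern over the 6 arrays was most like that of Notch2, the gene of the 10 with the lowest adjusted p, were Zfp462, Lasp1 and Hipk3. Their Pearson correlations with Notch2 were 0.998, 0.995 and 0.991 among 11984 genes compared. The arrays share the group difference and their normalization, and none of the 3 passed limma's test, with log2 fold changes of -0.21, -0.36 and -0.23 (adjusted p = 0.236, 0.0879 and 0.239).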

How the data were processed

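RNA of 6 samples was measured on Affymetrix whole-transcript arrays of the mouse. By the methods of the study, the authors scanned the arrays with AGCC 3.0, checked them with Expression Console 1.0 and normalised them with RMA in Partek Software 6.6, and deposited the values as log2. Genome build and annotation version were not given in the sources used here. Because RMA usually equalises the arrays, a shift common to most transcripts is lost.

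Clusters were named from the annotation of the platform, and 0 symbols changed when Entrez identifiers were matched to RefSeq (GRCm38.p6), which was used for names and promoter windows. Where a gene had several clusters, the brightest on average was used. Groups and replicate numbers came from the labels. The groups were compared with lmFit and eBayes of limma 3.58.1 in R 4.3.3, two-sided, without a filter and with Benjamini-Hochberg adjustment over 35556 clusters, and a prior of 2.83 degrees of freedom. Summaries used Python 3.11.15 and pandas 2.3.3. In simulated data with 35556 clusters, 79 were changed 1.5-fold, 60 were changed 2-fold and 61 were changed 4-fold. Of these 31.6%, 63.3% and 93.4% were recovered, with 7 of 127 calls false. Fewer clusters were changed than were called in the data, and noise was independent between clusters, so these shares may not carry over. The Notch members and all gene lists were chosen with earlier results of these data known. Genes were named by rule: every member, each called gene of the wider list, the gene with the largest change in a role without a call, and the 3 genes most like the member with the lowest adjusted p. Other list genes were named after their values were seen. Alternatives were a replicate block, a robust limma-trend fit, median centring, cyclic loess, array weights, restriction to brighter clusters or to clusters with 1 symbol, omission of each array, the mean of a gene's clusters, and the methods' t-test (uncorrected at 1.5-fold, and after Benjamini-Hochberg). Differences between genes within an array were compared with an exact permutation test over the arrays.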

Additional observations from a re-analysis of the deposited data

How the results depend on the processing

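Notch2 was called under limma-trend, cyclic loess, median centring, brighter clusters alone, clusters with 1 symbol, array weights and the mean of a gene's clusters, and lost its call with the replicate number as a block (log2 fold change -0.49, adjusted p = 0.0939) and without any 1 array (log2 fold change -0.56 to -0.44). The number of members called was 0 with the replicate block, 0 without any 1 array and 0 by the methods' t-test at 1.5-fold or after Benjamini-Hochberg. Calls over all clusters went from 1459 to 664 with the block and to between 294 and 1297 without 1 array. With array weights it was 8, 4 higher and 4 lower. Those weights were 3.62 for proliferation replicate 3 and 7.45 for differentiation replicate 1 against 0.397 to 0.491 for the other 4 arrays, and 12721 of all clusters were called. Under them the log2 fold changes of members that now passed, while that of Notch2 went from -0.49 to -0.32, were 0.43 for Notch1, 0.20 for Dll1, -0.76 for Jag1, -0.42 for Hes1, 0.55 for Hey1, -0.53 for Hey2 and 0.26 for Heyl.

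No member changed sign under another scaling, while the median over the 10 genes went from 0.03 to -0.01 with median centring. Leaving out 1 array, Notch3 ranged from -0.23 to 0.0766, with 0.0766 without proliferation replicate 1. Ranges without 1 array were 0.23 to 0.41 for Notch1, 0.16 to 0.34 for Dll1, -1.01 to -0.48 for Jag1, -0.28 to -0.13 for Hes1, 0.05 to 0.28 for Hes5, 0.37 to 0.80 for Hey1, -0.46 to -0.19 for Hey2 and 0.22 to 0.30 for Heyl. The members whose groups did not overlap numbered 4 to 7 without 1 array, 7 of them without differentiation replicate 2. Smaller groups are apart more easily, and the share of all genes was not taken in these settings. The counts are therefore not read as a result about the members.

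The wider list had 8 called genes. It had 2 with the replicate block, 13 with clusters of 1 symbol alone, 26 with array weights, 14 with the mean of a gene's clusters, 4 by the methods' t-test after Benjamini-Hochberg and 2 to 5 without 1 array. Under the block Tle3 and Bhlhe41 were called, and Notch4, Furin, Adam10, Ctbp2, Numbl and Neurod4 had adjusted p values of 0.0619 to 0.162. The labels do not say whether a shared number marks a shared litter or experiment. Deviations of same-numbered arrays from their group means correlated at -0.07 to 0.09, 0 of 3 pairs exceeded 0.1, and 1 of the 6 arrays correlated best with its own number. The block moved the calls over all clusters from 1459 to 664. Other settings moved them too, to 2038 of 21789 clusters with 1 symbol, 12721 with array weights and 294 to 1297 without 1 array. By the mean of a gene's clusters 1889 of 19938 genes were called, and by the methods' t-test after Benjamini-Hochberg 1.06% of all genes.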

Other observations

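The within-group SD was larger in proliferating than in differentiating enterospheres for 8 of the 10 Notch genes, against 54.6% of all genes, with Hes1 and Hes5 as the exceptions. The median SD of the 10 genes was 0.19 in proliferation and 0.10 in differentiation on the log2 scale, and that of all genes was 0.12 and 0.10. The spread was largest for Jag1, at 0.54 in proliferation against 0.08 in differentiation, followed by Hey1 at 0.43 against 0.07 and Notch3 at 0.32 against 0.08. The SD was also larger in proliferation for every measured marker of enteric neural crest and glia, of neurons and of mural cells. In the other marker lists the direction was mixed. The wider spread was therefore not particular to the Notch genes, and the difference in spread was not tested.

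Fbxw7, the ubiquitin ligase subunit that marks the released part of Notch for destruction, was measured by 2 clusters that differed. The brighter cluster had a log2 fold change of -0.60 (limma's adjusted p = 0.121) and the dimmer cluster one of 0.02 (adjusted p = 0.943).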
